A study of Homo sapiens with 18 samples.

Results

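The genes described here are the chemokines, interleukins and colony stimulating factors listed in RNA sequencing of the osteosarcoma (OS) line Saos-2. They were chosen by name: every gene whose symbol is CXCL or CCL followed by a number, CX3CL1, IL followed by a number and at most 1 letter from A to F, IL1RN, CSF1 to CSF3, LIF, TNF or TSLP. The rule found 77 of the 50119 genes listed, of which 36 were chemokines, 35 interleukins, 3 colony stimulating factors and 3 other cytokines, namely LIF, TNF and TSLP.

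Saos-2 is a long-used human line derived from OS, spelled Soas-2 in the sample records and given there as wild type. Its transcriptome was measured in 18 libraries, 3 in each of 6 groups, to ask how the way of culture changes gene expression relative to a tumor grown in a mouse. The D-2 group was cells grown flat on plastic for 14 days. The D-3 group was cells mixed into Matrigel, a basement membrane extract, for 14 days. DP-3 was cells printed in an ink of methacrylated gelatin and alginate and hardened with blue light and calcium chloride, sampled after 14 days (DP-3) and after 1 day (DP-3 day 1). IT was pieces of xenograft tumor laid on Matrigel and cultured for 14 days, and FIT was fresh xenograft tumor without culture, labelled day 14. The xenografts were Saos-2 cells injected under the skin in Matrigel into young female BALB/c nude mice, which lack T cells but keep other immune cells, vessels and fibroblasts of their own. Each excised tumor was divided between IT and FIT, so these groups may share animals. All groups stand on 1 cell line, and nothing in the labels says that replicates came from separate cultures or animals, so the p-values measure the spread between these libraries, which may be technical.

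Chemokines are small secreted proteins that draw white blood cells along a gradient by binding G protein-coupled receptors. Those of the CXC class with an ELR motif, such as CXCL8, act on CXCR1 and CXCR2 of neutrophils, while CXCL9, CXCL10 and CXCL11 act on CXCR3 of T and NK cells, and CC chemokines act on monocytes, lymphocytes and eosinophils. Interleukins and colony stimulating factors signal through cytokine receptors, many of them by JAK and STAT proteins, and through the receptors of the IL-1 family. Many inflammatory members are switched on by the transcription factors NF-κB and AP-1 after IL-1, TNF or stress. OS cells are known to release several of them, and in bone IL-6, IL-11, CSF1 and IL-34 act on the osteoclast lineage.

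Promoter sequences of RefSeq on GRCh38.p14 were searched for a 9-base NF-κB-type pattern, GGNNNTTCC, and for the AP-1 pattern TGANTCA, on both strands, from 250 bases before to 50 bases after the start site. The 2 patterns were counted separately. The NF-κB-type pattern was found in 5498 of 27305 promoters (20.1%), in 15 of the 54 members with a promoter entry (27.8%) and in 9 of the 15 such members that reached a mean of 1 FPKM in any group (60.0%). The AP-1 pattern was found in 7.76% of all promoters, in 13 of the 54 members (24.1%) and in 4 of the 15 (26.7%). A match describes these letters and is not evidence of binding. The stretch from position -140 to -41 is shown for 6 of the members called below that carry the NF-κB-type pattern there. CXCL5, CXCL10, CXCL11 and IL32, also called below, carry it there too and are not shown. Letters run 5′ to 3′ on the strand of the gene, with matches in capitals and the start site at position 0.
CXCL8, chr4:73740429-73740528, plus strand: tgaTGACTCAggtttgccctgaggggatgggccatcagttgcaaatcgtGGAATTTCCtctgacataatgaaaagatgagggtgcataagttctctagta
CXCL2, chr4:74099236-74099335, minus strand: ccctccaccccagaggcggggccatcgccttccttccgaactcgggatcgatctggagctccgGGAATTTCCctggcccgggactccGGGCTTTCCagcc
CXCL3, chr4:74038730-74038829, minus strand: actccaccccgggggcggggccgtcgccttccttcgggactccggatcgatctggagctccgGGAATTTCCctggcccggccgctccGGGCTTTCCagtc
CCL20, chr2:227813702-227813801, plus strand: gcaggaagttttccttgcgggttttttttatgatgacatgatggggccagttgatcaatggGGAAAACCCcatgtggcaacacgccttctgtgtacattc
IL6, chr7:22727060-22727159, plus strand: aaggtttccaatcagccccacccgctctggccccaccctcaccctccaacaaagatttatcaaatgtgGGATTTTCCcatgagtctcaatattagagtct
CSF2, chr5:132073649-132073748, plus strand: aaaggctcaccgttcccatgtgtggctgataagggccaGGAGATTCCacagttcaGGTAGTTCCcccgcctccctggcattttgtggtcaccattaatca

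The match of CXCL8 began at position -91, with an AP-1 match at position -137. CXCL2 had matches at positions -77 and -53 and CXCL3, its neighbour on chromosome 4, at -78 and -53. IL6 had 1 match at position -72, CCL20 1 at -79 on the opposite strand, and CSF2 matches at -102 and -85. IL24 and IL33, which changed in several comparisons below, held neither pattern in the window searched.

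Levels are given in FPKM, the deposited measure of fragments scaled by transcript length and by the total of the library. Tests were made on the estimated counts with edgeR's quasi-likelihood test, and a gene was called upregulated or downregulated at an adjusted p (Benjamini-Hochberg over all genes tested) below 0.05 and a change of at least 2-fold. A log2 fold change is given with its standard error (SE). Where every library of a group was at or below 12 estimated counts, a lower bound of the fold against that limit in the shallowest library of the group replaces the fitted value. How many read pairs a count stands for is not known, so the limit of 12, which would be 3 read pairs at 4 counts each, rests on an assumption. The bound covers counting error only.

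The total estimated count ranged from 23721666 in FIT replicate 3, the shallowest library, to 79082786. A limit of 12 counts was 0.506 CPM (counts scaled to the library total) in FIT replicate 3 and 0.152 in the deepest library. The number of all genes at 0.1 FPKM or more was 17716 to 18109 in D-2, 18664 to 19249 in DP-3, 19969 to 21750 in FIT, 20539 to 21813 in IT, 21384 to 22322 in D-3 and 24694 to 24791 in DP-3 day 1. The part of these differences in the results on low members was not tested. Saos-2 is known for osteoblast genes, but ALPL stayed at or below a mean of 0.0881 FPKM in every group, SP7 at or below 0.0331, and IBSP was at 0 in all groups but DP-3 day 1. RUNX2 was present, at means from 0.76 to 1.54 FPKM. COL1A1 was the highest of the 8 osteoblast genes listed in every group, at means from 1.89 to 6.38 FPKM in the cultures and 20.3 in FIT. BGLAP never exceeded 0.941 FPKM in any library.

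Most of the 77 genes were silent or close to it. In no group did 30 of them reach a mean of 0.1 FPKM, 26 reached 0.1 but not 1, and 21 reached 1. At or below 12 counts in all 18 libraries were 20 members. In these bulk libraries, fewer cells of a type and less RNA per cell cannot be told apart. D-3 held the highest mean for 12 of the 21 genes that reached 1 FPKM, and DP-3 day 1 for 4. D-2 held the lowest mean for 10 of them. A gene could enter these 21 through its highest group alone. Of all 77 members, 33 had their highest mean in D-3 and 22 in DP-3 day 1. The matching shares over all genes were not computed, so these counts only describe the members. Each D-3 library had 37 to 41 members at 0.1 FPKM or more, against 22 to 24 in D-2, 24 to 29 in DP-3, 25 to 34 in FIT, 29 to 35 in DP-3 day 1 and 30 to 36 in IT. Summed over all members, the median library of D-3 held 151.7 FPKM, against 117.4 in DP-3 day 1, 84.8 in DP-3, 83.4 in IT, 58.1 in D-2 and 45.5 in FIT. CSF1 alone made up a large part of these sums. Without it the medians were 102.7 in D-3, 54.2 in IT, 49.3 in DP-3, 42.9 in DP-3 day 1, 30.0 in FIT and 27.1 in D-2.

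IT replicate 3 stood apart from the other IT libraries, with a summed level of 158.7 FPKM, while the other two were at 67.2 and 83.4. It was the highest IT library for CSF1, CXCL2, CXCL3, IL6, IL32 and IL33 and the lowest for IL18. Of the 26 NF-κB and feedback genes listed below, 10 were highest of all 18 libraries there. They were NFKBIA, at 70.5 FPKM, SOD2, at 64.5, NFKB2, at 35.4, and RELB, REL, NFKBIE, TNFAIP3, BCL3, SOCS1 and ZC3H12A, between 1.04 and 15.3.

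**Figure D1:**
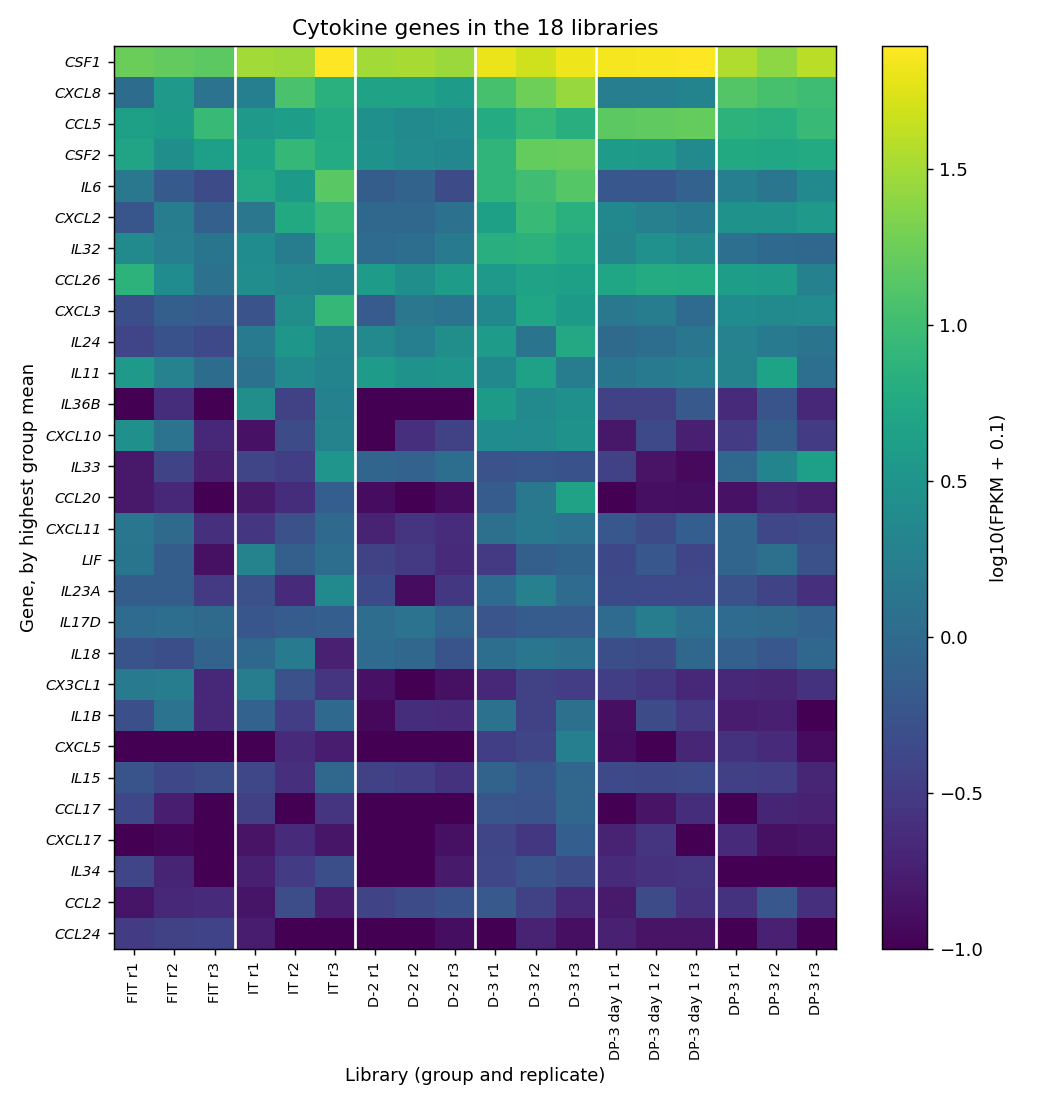
Heatmap of the 29 cytokine genes that reached a mean of 1 FPKM in a group or were called in a comparison. Rows are genes ordered by highest group mean, columns are the 18 libraries by group, and colour is log10(FPKM + 0.1). CSF1 was bright in every library, and the 3 D-3 columns were the fullest.

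Of the chemokines that act on neutrophils, CXCL8, CXCL2, CXCL3 and CXCL5 were upregulated in D-3 against both D-2 and FIT. CXCL6 reached 0.1 FPKM in too few libraries to be tested in either comparison. CXCL8, the main human neutrophil attractant, was at 11.1, 18.1 and 28.0 FPKM in D-3, at 13.2, 11.1 and 9.78 in DP-3, at 4.51, 4.54 and 3.84 in D-2, at 0.945, 3.62 and 1.17 in FIT, at 1.68, 11.5 and 6.70 in IT, and at 1.65, 1.68 and 1.92 in DP-3 day 1. Every D-3 and DP-3 library lay above every FIT, D-2 and day 1 library, while IT overlapped FIT. Against FIT, CXCL8 was upregulated in D-3 (log2 fold change 3.20 ± 0.59 SE, adjusted p = 0.0186) and in DP-3 (2.64 ± 0.52, adjusted p = 0.0284). The D-3 call was lost without D-3 replicate 3 (adjusted p = 0.0817), and the DP-3 call without any single DP-3 library or FIT replicate 1, with the highest adjusted p, 0.0826, without DP-3 replicate 1. Its rise from day 1 to day 14 in the print (2.95 ± 0.15, adjusted p = 0.000596) and from D-2 to D-3 (1.895 ± 0.31, adjusted p = 0.00536) held whichever library was left out.

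CXCL2, made by macrophages and stressed stromal cells, was at 4.26, 9.04 and 6.85 FPKM in D-3, at 2.91, 2.88 and 3.48 in DP-3, at 0.859, 0.837 and 1.12 in D-2 and at 0.493, 1.59 and 0.668 in FIT. D-3 did not overlap D-2, DP-3 or FIT, but IT, at 1.29, 5.63 and 8.34, overlapped D-3. CXCL2 was upregulated in D-3 against FIT (2.75 ± 0.54, adjusted p = 0.0217) and against D-2 (2.58 ± 0.33, adjusted p = 0.00262). CXCL3, its close relative, was at 2.14, 5.08 and 3.66 FPKM in D-3, at 2.48, 2.32 and 2.42 in DP-3, at 0.569, 1.299 and 1.16 in D-2, at 0.396, 0.654 and 0.586 in FIT, and spread in IT from 0.453 through 2.56 to 8.47. D-3 and DP-3 again lay above D-2 and FIT without overlap. Against FIT, CXCL3 was upregulated in D-3 (2.62 ± 0.43, adjusted p = 0.0127) and DP-3 (2.22 ± 0.33, adjusted p = 0.0154). Without D-3 replicate 3 the adjusted p in D-3 against FIT was 0.0885 for CXCL2 and 0.0611 for CXCL3. The CXCL2 call also went without D-3 replicate 1 or FIT replicate 1, and that of CXCL3 in DP-3 without any single DP-3 library or FIT replicate 1, at up to 0.0638. CXCL2 and CXCL3 have similar transcripts, and how reads shared between them were counted is not given in the sources used here, so the split between them is uncertain.

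CXCL5, which acts on CXCR2, was at 0 FPKM in all 6 D-2 and FIT libraries and at 0.244, 0.303 and 1.65 in D-3. The level in D-3 was at least 11.1-fold higher than in D-2 (adjusted p = 0.00979) and at least 4.11-fold higher than in FIT (adjusted p = 0.022). The call against FIT was lost without FIT replicate 1 or 2, at up to 0.0608, and without any D-3 library too few libraries passed the filter for a test of either. CXCL6, the remaining ligand of this class listed, never exceeded 0.335 FPKM and was called in no comparison that tested it. Its D-3 libraries, at 0.175, 0.0454 and 0.335, lay above all D-2 and FIT libraries.

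Among the ligands of CXCR3, CXCL9 was at 0 FPKM in all but 3 libraries, 2 of them FIT. CXCL10, an interferon-induced attractant of T cells, was at 2.43, 2.42 and 2.96 FPKM in D-3 and at 0, 0.143 and 0.270 in D-2, and ran in FIT from 0.115 through 1.16 to 2.72. D-3 did not overlap D-2, and FIT overlapped both. CXCL10 was upregulated in D-3 against D-2 (3.94 ± 0.95, adjusted p = 0.0181) and downregulated in DP-3 against D-3 (-2.64 ± 0.49, adjusted p = 0.0159). The first call was lost without D-2 replicate 2 (adjusted p = 0.0567) or D-3 replicate 3, the second without D-3 replicate 3 (0.0638) or D-3 replicate 1.

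CXCL11 followed a like order, with 1.08, 1.40 and 1.15 FPKM in D-3, 0.517, 0.360 and 0.640 in DP-3 day 1 and 0.095, 0.178 and 0.133 in D-2. It was upregulated in D-3 against D-2 (2.86 ± 0.38, adjusted p = 0.0029) whichever library was left out, and in DP-3 day 1 against D-2 (1.55 ± 0.41, adjusted p = 0.0205) except without D-2 replicate 1 or 3 or day 1 replicate 3 (up to 0.0592). It was downregulated in D-2 against FIT (-2.34 ± 0.73, adjusted p = 0.0476), although FIT replicate 3, at 0.152 FPKM, lay within the D-2 range, and that call went in 5 of 6 fits with a library left out, all but that without FIT replicate 3, at up to 0.138.

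CX3CL1, a membrane-bound chemokine shed from endothelium and epithelium, was the only member of at least 1 FPKM whose highest mean was in FIT, at 1.48, 1.53 and 0.113 FPKM. The D-2 libraries were at 0.039, 0 and 0.0333, below all FIT libraries. CX3CL1 was downregulated in D-2 against FIT (-5.23 ± 1.29, adjusted p = 0.0214), a call lost without D-2 replicate 1 or 3 (up to 0.0617), and IT ranged from 0.179 to 1.60. CXCL17, a mucosal chemokine, was at 0.306, 0.195 and 0.624 FPKM in D-3 and at or below 12 counts in all FIT and D-2 libraries. It was called in D-3 against D-2, at least 2.61-fold higher (adjusted p = 0.0235), without D-2 replicate 1 or 2 no longer (up to 0.0558), and in D-3 against FIT (adjusted p = 0.0395), where the limit in FIT replicate 3 leaves no lower bound above 1 and every fit without a FIT library lost it (up to 0.0914).

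CCL5, which draws T cells and monocytes, differed in order from CXCL8. Its highest levels were in DP-3 day 1, at 14.4, 15.5 and 16.3 FPKM, then in DP-3 at 7.25, 6.80 and 8.88 and in D-3 at 5.98, 8.65 and 6.55. D-2 was lowest, at 2.76, 2.34 and 2.53, below every other library. CCL5 was upregulated against D-2 in DP-3 day 1 (2.28 ± 0.11, adjusted p = 2.52e-05) and in D-3 (1.22 ± 0.21, adjusted p = 0.00585), whichever library was left out. From day 1 to day 14 in the print it changed by -0.73 ± 0.16, less than 2-fold (adjusted p = 0.019).

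CCL20, the ligand of CCR6 on dendritic cells and Th17 cells, stood out in D-3, at 0.588, 1.33 and 4.53 FPKM. All D-2, FIT, DP-3 and day 1 libraries were below 0.15 FPKM, and IT replicate 3 was at 0.634. D-3 was at least 21.4-fold higher than D-2 (adjusted p = 0.00631), and CCL20 was downregulated in DP-3 against D-3 (-4.63 ± 0.84, adjusted p = 0.0148), a call that held without each library. Against FIT the change in D-3 was 4.80 ± 1.06 (adjusted p = 0.0325), a call lost in 5 of 6 fits with a library left out, all but that without D-3 replicate 2, at up to 0.131.

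CCL26, an eosinophil attractant acting on CCR3, was present throughout, from 1.13 to 7.29 FPKM, with FIT alone spanning that range, and was called in no comparison. The other CC chemokines called were all under 1 FPKM in every group. CCL2, the classic monocyte attractant, was at 0.289, 0.356 and 0.438 FPKM in D-2 and at 0.0466, 0.117 and 0.119 in FIT (2.06 ± 0.53, adjusted p = 0.0257), a call lost without any D-2 library or FIT replicate 1 (up to 0.0785). CCL24, another CCR3 ligand, was at 0.223, 0.259 and 0.278 in FIT and at least 2.57-fold lower in D-2 (adjusted p = 0.0273), lost without D-2 replicate 1 or 2 (up to 0.0612). CCL17, a ligand of CCR4, was at 0 in all D-2 libraries and at 0.487, 0.453 and 0.801 in D-3, at least 2.31-fold higher (adjusted p = 0.00564).

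**Figure D2:**
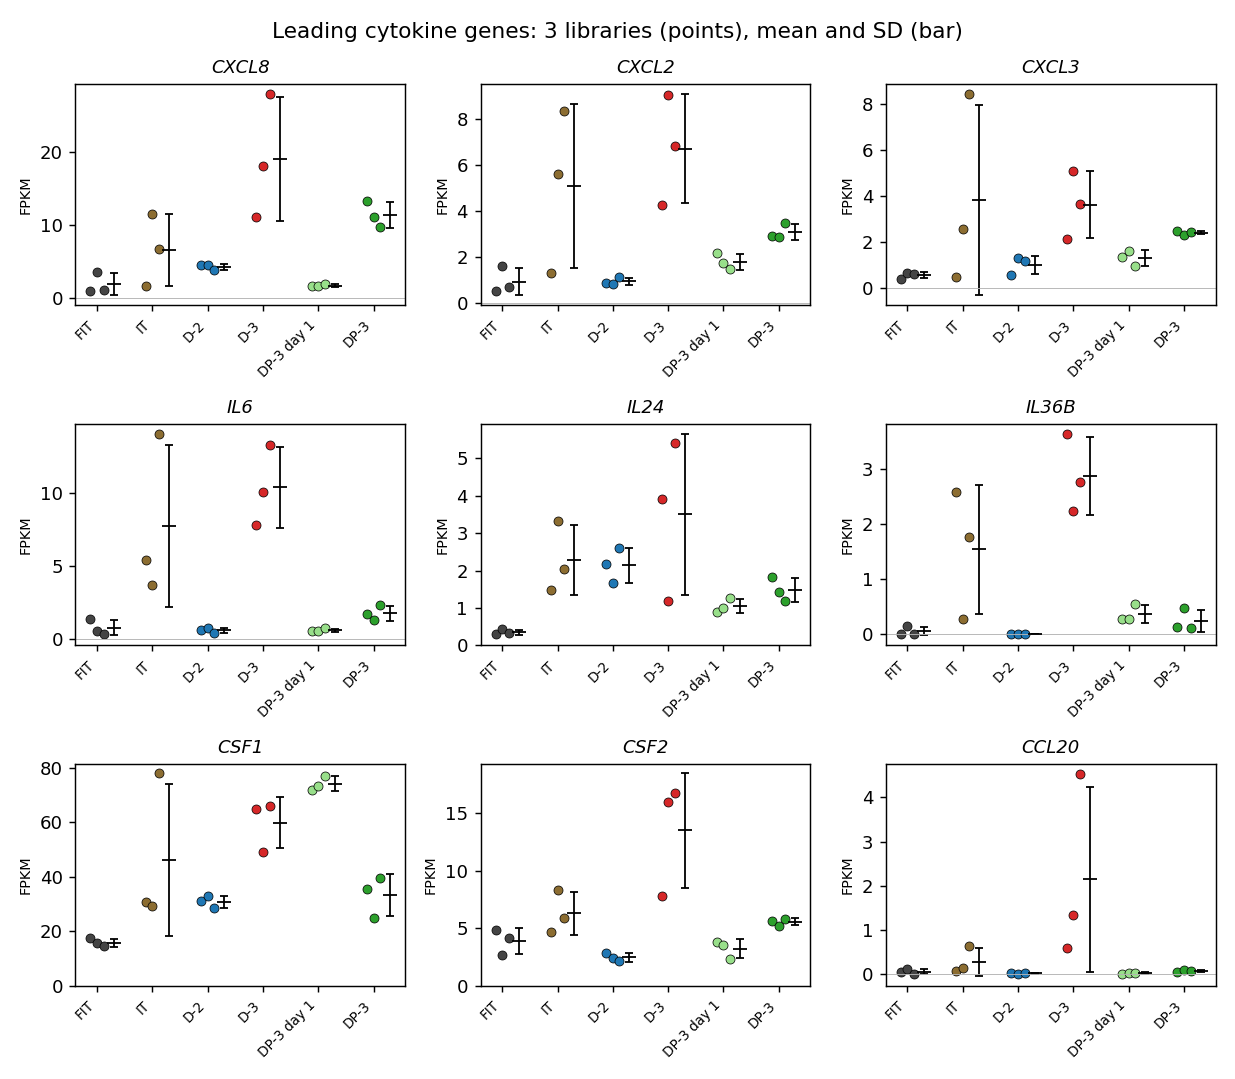
FPKM of 9 cytokine genes in each library by group, on linear axes. Points are the 3 libraries of a group, and the bar beside them is the mean and SD. D-3 points of CXCL8, CXCL2, IL6, CSF2 and CCL20 lay above all D-2 and FIT points, and IT points were spread widely.

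Of the IL-6 family, which signals through the shared subunit gp130, IL6 changed most. IL6 was at 7.79, 10.1 and 13.3 FPKM in D-3 and at 5.43, 3.68 and 14.1 in IT. In DP-3 it was at 1.67, 1.26 and 2.32, in FIT at 1.35, 0.555 and 0.357, in D-2 at 0.620, 0.733 and 0.370, and in DP-3 day 1 at 0.508, 0.515 and 0.708. The cultures on or in Matrigel, D-3 and IT, thus lay above all libraries of the other 4 groups. IL6 was upregulated in D-3 against FIT (3.64 ± 0.47, adjusted p = 0.00575) and D-2 (3.89 ± 0.33, adjusted p = 0.00128). It was upregulated from day 1 to day 14 in the print (1.85 ± 0.34, adjusted p = 0.0103) and downregulated in DP-3 against D-3 (-2.33 ± 0.32, adjusted p = 0.00793). All 4 calls held whichever library was left out. IT against FIT gave 3.29 ± 0.65 but an adjusted p of 0.179, so it was not called.

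IL11, which stimulates bone resorption, was at 3.74, 2.94 and 3.08 FPKM in D-2 and at 1.24, 1.41 and 1.68 in DP-3 day 1 (-1.48 ± 0.17, adjusted p = 0.000677), a call that held without each library. D-3, DP-3 and FIT overlapped both, with single libraries up to 4.72 FPKM. LIF reached its highest mean in IT, at 1.89, 0.661 and 1.01 FPKM, overlapped between FIT and every other group and was called in no comparison.

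In the IL-1 family, IL36B, whose protein activates epithelial and myeloid cells, was at 0 FPKM in all D-2 libraries and at 3.64, 2.23 and 2.77 in D-3. DP-3 day 1 was at 0.261, 0.272 and 0.544, DP-3 at 0.128, 0.468 and 0.109, IT at 2.58, 0.262 and 1.76, and 1 of 3 FIT libraries was above 0, at 0.138. D-3 thus lay above all other groups but IT. D-3 was at least 33.45-fold higher than D-2 (adjusted p = 0.00134) and DP-3 day 1 at least 4.09-fold (adjusted p = 0.00235), and both calls held in every fit without 1 library that tested it. It was upregulated in D-3 against FIT (5.54 ± 1.16, adjusted p = 0.0278) and downregulated in DP-3 against D-3 (-3.39 ± 0.59, adjusted p = 0.0131). Both were lost without D-3 replicate 1 or 3, at up to 0.0947 and 0.0525.

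IL33, an alarmin kept in the nucleus, had an order of its own, with its highest mean in DP-3. It was at 0.826, 1.93 and 4.21 FPKM in DP-3, at 0.777, 0.711 and 1.01 in D-2, at 0.448, 0.498 and 0.438 in D-3, at 0.0585, 0.288 and 0.0831 in FIT and at 0.267, 0.0433 and 0.0192 in DP-3 day 1. The DP-3 libraries spread over a wide range yet lay above those of D-3, day 1 and FIT. IT, at 0.301, 0.244 and 3.165, overlapped DP-3. IL33 was upregulated in DP-3 against day 1 (4.64 ± 1.02, adjusted p = 0.0193), against FIT (4.07 ± 0.84, adjusted p = 0.0312) and against D-3 (2.57 ± 0.57, adjusted p = 0.0251). It was downregulated in D-3 against D-2 (-1.09 ± 0.27, adjusted p = 0.0191) and in DP-3 day 1 against D-2 (-3.18 ± 0.84, adjusted p = 0.0211), and upregulated in D-2 against FIT (2.604 ± 0.63, adjusted p = 0.0206). Each of these 6 calls was lost in at least 2 fits with a library left out. The highest adjusted p was 0.0712 for DP-3 against day 1 (lost without day 1 replicate 2 or 3), 0.098 against FIT (any DP-3 library or FIT replicate 1) and 0.102 against D-3 (D-3 replicate 1 or 3 or DP-3 replicate 3). It was 0.0733 for D-3 against D-2 (D-2 or D-3 replicate 1 or 3), 0.0583 for day 1 against D-2 (D-2 replicate 3 or day 1 replicate 2) and 0.0606 for D-2 against FIT (any D-2 library).

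IL1B, a master inducer of inflammation, was at 1.10, 0.270 and 1.07 FPKM in D-3 and at 0.0141, 0.138 and 0.126 in D-2 (2.78 ± 0.85, adjusted p = 0.0395), and at 0.0722, 0.08 and 0 in DP-3 (-3.76 ± 1.002 against D-3, adjusted p = 0.0415). The first call was lost in 5 of 6 fits, all but that without D-3 replicate 2 (up to 0.108), and the second without DP-3 replicate 1 or 2 (up to 0.0886). FIT ranged from 0.112 to 1.17 and IT from 0.233 to 0.879, and both overlapped D-3. IL1A never exceeded 0.387 FPKM. IL18, which drives interferon gamma release, stayed between 0.0825 and 1.46 FPKM and was called in no comparison.

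IL24, a member of the IL-10 family that signals through receptors containing IL20RB, was lower in FIT than in any culture. FIT was at 0.304, 0.430 and 0.334 FPKM, D-2 at 2.19, 1.66 and 2.59, D-3 at 3.91, 1.19 and 5.42, DP-3 at 1.83, 1.43 and 1.19, IT at 1.49, 3.31 and 2.05, and DP-3 day 1 at 0.898, 1.01 and 1.26. No culture library overlapped FIT. Against FIT it was upregulated in D-2 (2.71 ± 0.32, adjusted p = 0.00257), in D-3 (3.19 ± 0.58, adjusted p = 0.0184) and in DP-3 (2.14 ± 0.37, adjusted p = 0.0221), while IT gave 2.65 ± 0.46 with an adjusted p of 0.16. The D-2 call held without each library, but that in D-3 was lost without D-3 replicate 1 or 3 or FIT replicate 1 or 2 (up to 0.0817) and that in DP-3 in all fits but that without FIT replicate 3 (up to 0.0809). IL24 was downregulated in DP-3 day 1 against D-2 (-1.33 ± 0.24, adjusted p = 0.00447).

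IL32, an inducer of other inflammatory cytokines with no mouse counterpart, was at 6.55, 7.15 and 5.84 FPKM in D-3, at 1.99, 2.81 and 2.20 in DP-3 day 1, at 2.34, 1.63 and 1.23 in FIT, at 1.04, 0.880 and 0.816 in DP-3 and at 0.925, 1.02 and 1.44 in D-2. D-3 lay above all of these without overlap, and only IT replicate 3, at 6.98, reached it. IL32 was upregulated in D-3 against FIT (1.81 ± 0.27, adjusted p = 0.00983) and D-2 (2.25 ± 0.21, adjusted p = 0.00141) and downregulated in DP-3 against D-3 (-2.57 ± 0.21, adjusted p = 0.00314), with all calls kept whichever library was left out. Its fall from day 1 to day 14 in the print (-1.07 ± 0.21, adjusted p = 0.0137) was lost without day 1 replicate 2 (0.0565).

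The other interleukins changed at low levels. IL15, a survival factor of NK and T cells, was at 0.733, 0.487 and 0.795 FPKM in D-3, at 0.270, 0.238 and 0.162 in D-2 and at 0.250, 0.240 and 0.104 in DP-3. It was upregulated in D-3 against D-2 (1.32 ± 0.31, adjusted p = 0.0162), without each library too, and downregulated in DP-3 against D-3 (-1.53 ± 0.40, adjusted p = 0.0393), a call lost in all fits but that without D-3 replicate 2 (up to 0.131). IL17D moved the other way, from 0.984, 1.17 and 0.772 in D-2 to 0.475, 0.587 and 0.576 in D-3 (-1.09 ± 0.27, adjusted p = 0.0201), a call lost without D-2 replicate 1 or 2 or D-3 replicate 1 or 3 (up to 0.0844). IL23A, a subunit of IL-23, was at 0.928, 1.70 and 0.921 in D-3 and at 0.343, 0.0258 and 0.198 in D-2, without overlap but also without a call (2.36 ± 0.78, adjusted p = 0.0504). IT overlapped D-3 for IL15, IL17D and IL23A.

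The colony stimulating factors held the most abundant member. CSF1, the growth factor of macrophages and osteoclast precursors, was at 17.4, 15.5 and 14.5 FPKM in FIT and higher in every culture library. D-2 was at 30.9, 32.8 and 28.4, D-3 at 64.9, 48.9 and 65.9, DP-3 at 35.4, 24.9 and 39.7, DP-3 day 1 at 71.7, 73.5 and 77.1, and IT at 30.9, 29.2 and 78.2. Against FIT it was upregulated in D-2 (1.11 ± 0.11, adjusted p = 0.00184), D-3 (1.86 ± 0.17, adjusted p = 0.00188) and DP-3 (1.21 ± 0.21, adjusted p = 0.0208). The first 2 held without each library, and the third was lost without DP-3 replicate 1 or 3 or FIT replicate 1 or 2 (up to 0.0749).

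IL34, which shares the CSF1 receptor with CSF1, was low and was at 0 FPKM in all DP-3 libraries, against 0.315, 0.444 and 0.359 in D-3 and 0.122, 0.160 and 0.170 in DP-3 day 1. DP-3 was at least 4.11-fold below D-3 (adjusted p = 0.00798) and at least 1.64-fold below day 1 (adjusted p = 0.0093). Both calls held in the fits without a DP-3 library, the only ones of these that tested it. In D-3 against D-2 it was upregulated (3.79 ± 1.24, adjusted p = 0.0498), and lost without D-2 replicate 1 or 2 (up to 0.087). IT, from 0.0817 to 0.402 FPKM, overlapped D-3.

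CSF2, which acts on granulocytes and macrophages, was at 7.78, 15.9 and 16.8 FPKM in D-3, above all other libraries but 1 of IT. It was at 5.59, 5.22 and 5.83 in DP-3, at 4.64, 8.32 and 5.86 in IT, at 4.81, 2.67 and 4.17 in FIT, at 3.78, 3.57 and 2.30 in DP-3 day 1 and at 2.85, 2.36 and 2.14 in D-2. It was upregulated in D-3 against D-2 (2.21 ± 0.33, adjusted p = 0.00397), with each library left out too. Against FIT (1.75 ± 0.38, adjusted p = 0.0314) it was lost in 5 of 6 fits, all but that without D-3 replicate 1 (up to 0.131), and its rise from day 1 to day 14 in the print (1.05 ± 0.26, adjusted p = 0.028) was lost in all 6 (up to 0.0828). CSF3, the granulocyte factor, never exceeded 0.321 FPKM.

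Counted over the whole family, D-3 differed most from FIT. In D-3 against FIT, 12 of the 37 members tested were upregulated and 0 downregulated, while 4.29% of the 21676 genes tested were upregulated and 2.17% downregulated. The 12 were CCL20, CXCL2, CXCL3, CXCL5, CXCL8, CXCL17, IL6, IL24, IL32, IL36B, CSF1 and CSF2. The median log2 fold change of the members was 1.36, against 0.0237 for all genes tested. CXCL5 and CXCL17 passed the filter through the D-3 libraries alone, so they were tested only because D-3 was higher. The members called numbered 3 without D-3 replicate 3 (CSF1, IL6 and IL32), 6 without D-3 replicate 1 or FIT replicate 1 and 7 without FIT replicate 2, and these 3 were the calls kept in all fits.

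In D-2 against FIT, 4 of the 27 members tested were upregulated (CCL2, CSF1, IL24 and IL33) and 3 downregulated (CCL24, CX3CL1 and CXCL11), with 3.83% of all genes upregulated and 10.8% downregulated. CCL24 and CX3CL1 passed the filter through the FIT libraries alone. The count fell to 2 without D-2 replicate 1, to 3 without D-2 replicate 2 or 3 and to 4 without FIT replicate 1, and CSF1 and IL24 were kept in all fits. In DP-3 against FIT, 5 of 27 were upregulated (CSF1, CXCL3, CXCL8, IL24 and IL33) and 0 downregulated, against 1.66% and 3.16% of all genes. The count fell to 0 without DP-3 replicate 1 or 3 or FIT replicate 1 and to 1 without DP-3 replicate 2, so no member was kept in all fits. These comparisons share the 3 FIT libraries.

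In IT against FIT no member was called among 33 tested, and 0 of the 21183 genes were (0% in each direction). The smallest adjusted p of a member was 0.16, that of IL24, and 8 members had an unadjusted p below 0.05. DESeq2 called 5 members, CSF1, CXCL2, CXCL3, IL6 and IL24, and a single edgeR fit of all 18 libraries called these and IL36B. Of the 33, 4 members lay above FIT without overlap (IL6, IL24, IL36B and CSF1) and 2 below it (CCL24 and IL17D), against 11.1% and 9.49% of all genes tested, so the share above FIT was near that of all genes.

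**Figure D3:**
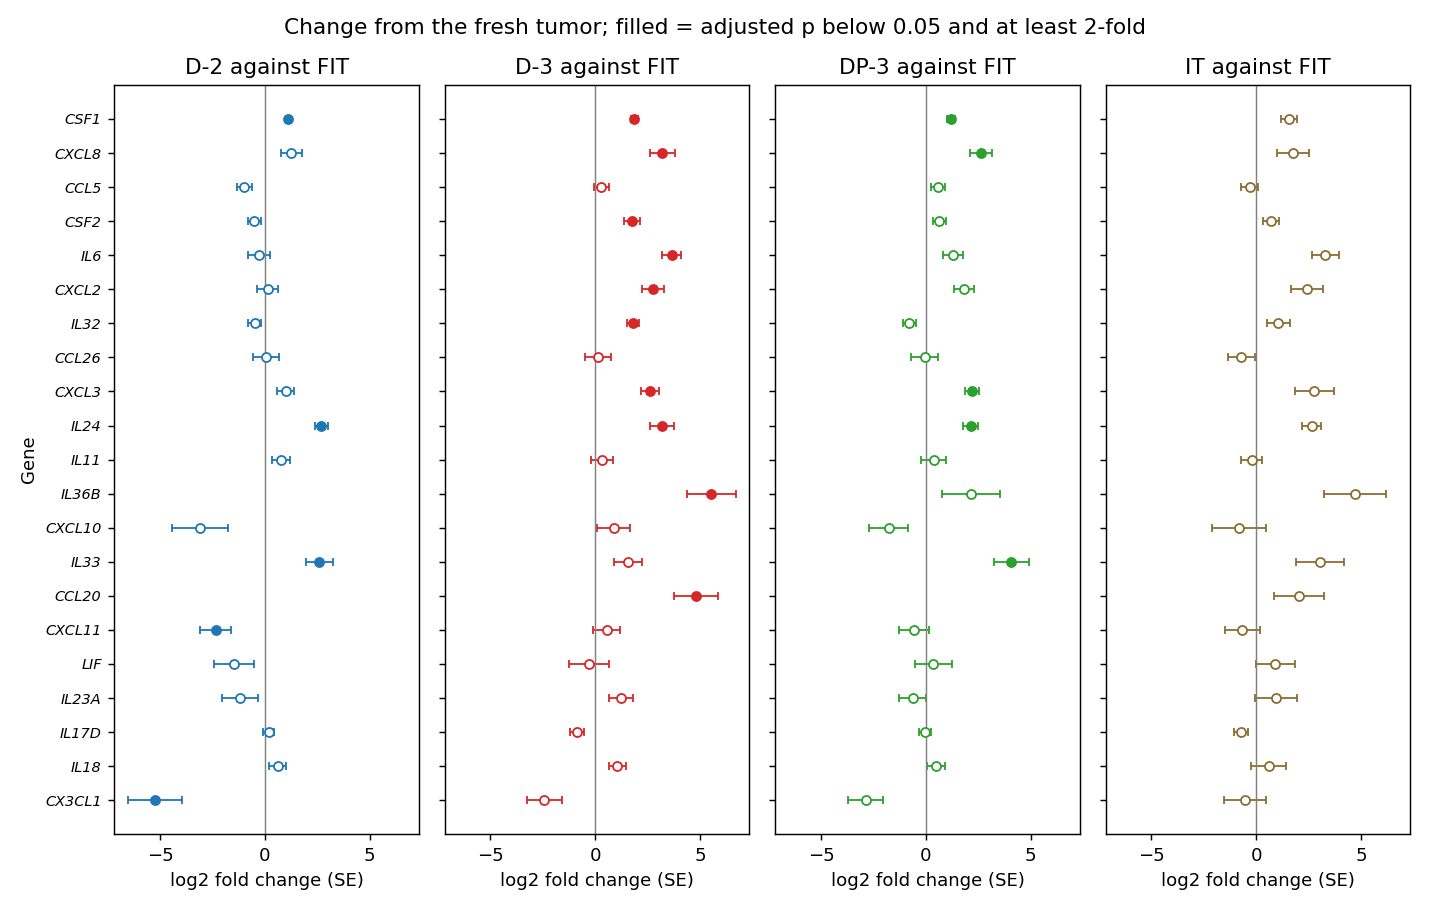
Log2 fold change against FIT, with its SE, of the members that reached a mean of 1 FPKM, in 4 panels, 1 for each 14-day culture. Filled points had an adjusted p below 0.05 and at least 2-fold change, open points did not, and a gene not tested in a comparison has no point. D-3 had most filled points right of 0, and all IT points were open.

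The cultures themselves differed most between D-3 and D-2. Of the 33 members tested, 17 were upregulated in D-3 and 2 downregulated, IL17D and IL33, against 14.6% and 3.95% of all genes. The 17 comprised 10 chemokines (CCL5, CCL17, CCL20, CXCL2, CXCL3, CXCL5, CXCL8, CXCL10, CXCL11 and CXCL17), 6 interleukins (IL1B, IL6, IL15, IL32, IL34 and IL36B) and CSF2. The median change of the members was 1.895 on the log2 scale, against 0.107 for all genes tested. Of the calls, CCL17, CCL20, CXCL5, CXCL17, IL34 and IL36B passed the filter through the D-3 libraries alone. These genes were tested only because D-3 was higher, and both the count and the median include them. Without D-3 replicate 3 the count of calls was 8 and without D-3 replicate 1 it was 11. The 8 kept in all fits were CCL5, CSF2, CXCL2, CXCL8, CXCL11, IL6, IL15 and IL32.

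The printed culture was lower than D-3 at the same age for 8 members. In DP-3 against D-3, these 8 of 34 members were downregulated (CCL20, CXCL10, IL1B, IL6, IL15, IL32, IL34 and IL36B) and 1 upregulated, IL33, against 7.15% and 1.98% of all genes. IL1B and IL34 passed the filter through the D-3 libraries alone. CXCL2, CXCL8 and CSF2 were at -0.89, -0.53 and -1.06 on the log2 scale and did not pass the test. The count fell to 4 without D-3 replicate 1 and to 3 without D-3 replicate 3, when CCL20, IL6 and IL32 were left, the 3 kept in all fits.

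Between day 1 and day 14 of the printed culture, CXCL8, CXCL2, CXCL3 and IL6 rose. CXCL5 was tested but not called, and CXCL6 missed the filter and was not tested. In DP-3 against DP-3 day 1, 6 of 29 members were upregulated (CSF2, CXCL2, CXCL3, CXCL8, IL6 and IL33) and 2 downregulated (IL32 and IL34), against 1.81% and 5.76% of all genes. IL34 passed the filter through the day 1 libraries alone, so it was tested only because day 1 was higher. The rises of CXCL2, from 2.17, 1.73 and 1.47 FPKM, and CXCL3, from 1.34, 1.60 and 0.934, were 2.07-fold and 2.23-fold (1.05 ± 0.25, adjusted p = 0.0243, and 1.16 ± 0.25, adjusted p = 0.0179). The count was 5 without day 1 replicate 1 and 3 without day 1 replicate 2 or 3, and CXCL8 and IL6 were kept in all fits.

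DP-3 day 1 differed from D-2 in both directions. Upregulated were 3 of 29 members (CCL5, CXCL11 and IL36B) and downregulated 4 (CXCL8, IL11, IL24 and IL33), against 13.1% and 4.13% of all genes. IL36B passed the filter through the day 1 libraries alone, so it was tested only because day 1 was higher. CXCL8 was 3.02-fold lower on day 1 than in D-2 (adjusted p = 0.000181). CCL5, CXCL8, IL11 and IL24 were kept in all fits. The day of sampling and the print cannot be told apart in this comparison, and D-2 was sampled on day 14. Over all 6 groups, an F test of any difference called 19 of 44 members, against 37.3% of all genes tested, a share close to that background.

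**Figure D4:**
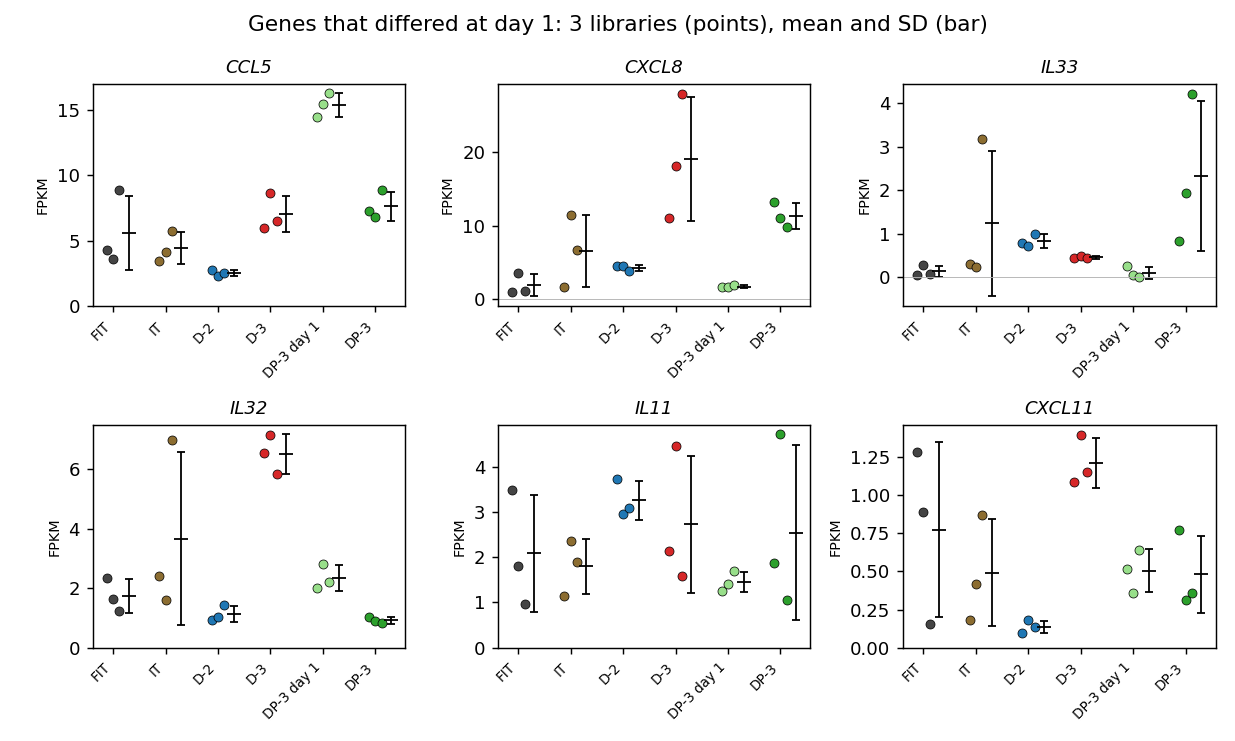
FPKM of 6 genes called in comparisons with DP-3 day 1, by group, on linear axes with the 3 libraries as points and the mean and SD beside them. CCL5 was highest on day 1, CXCL8 lowest there together with FIT, and IL33 was highest in DP-3.

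The receptors of several ligands above were at or near 0. Of 68 receptor genes fixed as a list, 66 were listed and between 32 and 41 were tested in a comparison. CXCR1, CXCR2, CXCR3, CCR6 and CSF2RB, receptors of the ligands above looked up after the values were seen, were at or below 0.121 FPKM in every library. IL6ST (gp130) was the most abundant receptor in D-2, D-3, DP-3 and FIT, at means from 35.4 to 47.8 FPKM, while IL6R ranged from 0.712 to 4.09 FPKM.

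The most receptors were called in D-3 against D-2, with 14 of 39 upregulated and 2 downregulated, against 14.6% and 3.95% of all genes. In DP-3 against D-3, 0 of 38 were upregulated and 9 downregulated, against 1.98% and 7.15% of all genes. In both comparisons some receptors, among them CCR2, CX3CR1, IL2RB and IL2RG, passed the filter through the D-3 libraries alone. These were tested only because D-3 was higher. IL20RB, a subunit of the IL-24 receptors, was at 6.15, 7.85 and 8.33 FPKM in D-3 and below 0.66 in every other library. IL20RB was upregulated in D-3 against FIT (4.49 ± 0.35, adjusted p = 0.00115) and D-2 (4.26 ± 0.31, adjusted p = 0.000866) and downregulated in DP-3 against D-3 (-3.96 ± 0.44, adjusted p = 0.00454). Its partners on the list differed, since IL20RA was near 0 in every library and IL22RA1 was between 0.417 and 1.22 FPKM. IL13RA2, a decoy receptor of IL-13, was at 3.79, 3.34 and 4.05 FPKM in D-3 and at 0 in all FIT libraries, at least 13.96-fold higher (adjusted p = 0.0017), and changed by 5.39 ± 0.84 against D-2 (adjusted p = 0.00439). Against FIT, IL13RA2 passed the filter through the D-3 libraries alone. IL3RA, the IL-3 receptor chain, was upregulated against D-2 in D-3 (2.47 ± 0.45, adjusted p = 0.00732) and in DP-3 day 1 (2.37 ± 0.26, adjusted p = 0.000486).

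Against FIT, 6 of 41 receptors were upregulated and 2 downregulated in D-3 (4.29% and 2.17% of all genes), 3 of 33 and 6 in D-2 (3.83% and 10.8%), 3 of 32 and 3 in DP-3 (1.66% and 3.16%), and 0 of 39 in either direction in IT (0%). Like IL13RA2, CCR2 and CX3CR1 were tested in D-3 against FIT through the D-3 libraries alone. CCR3 and IL2RG were tested in D-2 and DP-3 through the FIT libraries alone. IL7R, which binds IL-7 and TSLP, was at 32.6, 30.4 and 26.5 FPKM in D-2 and at 0.450, 2.80 and 8.07 in FIT (3.15 ± 0.86, adjusted p = 0.0304). IL17RE, the IL-17C receptor, was highest in FIT, with a mean of 1.12 FPKM against 0.218 in D-2 (-2.19 ± 0.36, adjusted p = 0.00585), 0.354 in D-3 (-1.73 ± 0.39, adjusted p = 0.036) and 0.175 in DP-3 (-2.54 ± 0.48, adjusted p = 0.0262). CCR1, a receptor of CCL5, was at 2.98 FPKM in FIT and 0.683 in D-2 (-1.97 ± 0.51, adjusted p = 0.0253). IL17RD was upregulated (1.45 ± 0.21, adjusted p = 0.0147) and IL17RC downregulated (-1.19 ± 0.23, adjusted p = 0.0289) in DP-3. In the print, CRLF2, the TSLP receptor, fell from a mean of 4.76 FPKM on day 1 to 1.57 (-1.33 ± 0.19, adjusted p = 0.00513) and IL3RA from 2.10 to 0.516 (-1.76 ± 0.34, adjusted p = 0.0131), the 2 receptors called of 34. Downregulated there were 5.76% of all genes, a share near that of the receptors. In DP-3 day 1 against D-2, 5 of 34 were upregulated and 2 downregulated, near the 13.1% and 4.13% of all genes, among them CRLF2 (1.15 ± 0.18, adjusted p = 0.00254) and CSF1R, the receptor of CSF1 (-1.16 ± 0.26, adjusted p = 0.0112). CCR3, IL12RB2 and IL2RG passed the filter there through the day 1 libraries alone.

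A list of 26 NF-κB pathway and cytokine feedback genes had its most calls in D-3 against D-2, as all genes did, with 9 of 26 upregulated and 0 downregulated against 14.6% and 3.95% of all genes. D-3 against FIT gave 6 of 26 and 0 (4.29% and 2.17% of all genes), and DP-3 against D-3 gave 0 upregulated and 8 downregulated (1.98% and 7.15%). ICAM1 passed the filter in these comparisons through the D-3 libraries alone, so it was tested only because D-3 was higher. SOD2, the mitochondrial superoxide dismutase induced by NF-κB, was at 25.2, 12.5 and 22.6 FPKM in D-3, at 3.46, 3.06 and 3.26 in D-2 and at 4.02, 3.63 and 2.32 in FIT. IT overlapped D-3 for SOD2, at 13.2, 10.5 and 64.5, and also for RELB and BIRC3. SOD2 was upregulated in D-3 against FIT (2.53 ± 0.32, adjusted p = 0.00538) and D-2 (2.37 ± 0.25, adjusted p = 0.0019). RELB, an NF-κB subunit, changed by 2.31 ± 0.22 against D-2 (adjusted p = 0.00155), and BIRC3, an inhibitor of apoptosis, by 2.23 ± 0.37 (adjusted p = 0.0053). BIRC3 and TNFAIP3, which switches NF-κB off, were upregulated against FIT too (1.97 ± 0.39, adjusted p = 0.0221, and 1.51 ± 0.26, adjusted p = 0.0161). In DP-3 against D-3, SOD2, BIRC3 and IER3 fell by 1.93, 1.69 and 1.67 on the log2 scale (adjusted p = 0.00745, 0.0217 and 0.0204).

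The remaining comparisons gave 6 calls or fewer. In D-2 against FIT, 0 of 25 were upregulated and 3 downregulated (3.83% and 10.8% of all genes), with RELB at -1.15 ± 0.31 (adjusted p = 0.0293) and TRAF1 at -1.13 ± 0.16 (adjusted p = 0.0037). In DP-3 against FIT, TNFAIP3 (1.14 ± 0.25, adjusted p = 0.0358) was the only one called of 25 (1.66% and 3.16% of all genes), and in IT, 0 of 25 were. In DP-3 day 1 against D-2, 3 of 24 were upregulated and 3 downregulated (13.1% and 4.13% of all genes). RELB was higher on day 1 (1.74 ± 0.18, adjusted p = 0.000391), while PTX3, a secreted pattern recognition protein, was lower (-2.15 ± 0.11, adjusted p = 3.21e-05). From day 1 to day 14 in the print, 4 of 25 rose and 1 fell (1.81% and 5.76% of all genes), with PTX3 up by 1.76 ± 0.12 (adjusted p = 0.00141) and NFKB2 down by 1.02 ± 0.08 (adjusted p = 0.00159). RELB and NFKB2 thus were high on day 1, when CXCL8 and IL6 were low.

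**Figure D5:**
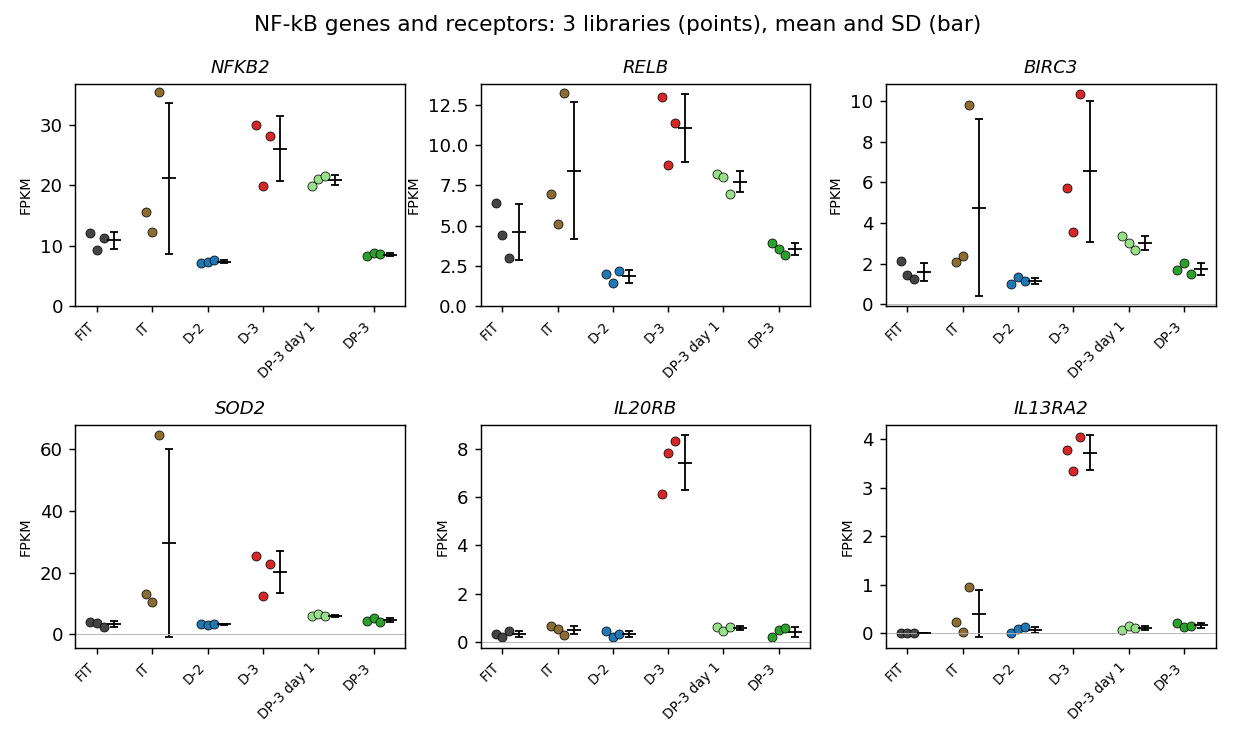
FPKM of 4 NF-κB pathway genes and 2 receptors by group, on linear axes with the 3 libraries as points and the mean and SD beside them. SOD2, IL20RB and IL13RA2 were higher in D-3 than in D-2 and FIT without overlap, and IT replicate 3 was the highest SOD2 library at 64.5 FPKM.

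Markers of other cells that a xenograft could hold were followed beside these genes. Of 10 macrophage markers, CD68, at 18.6 to 115.1 FPKM, made up most of the summed level in all groups, also in the pure cultures. The sum was 61.9 to 86.6 FPKM in D-3, 43.2 to 46.0 in D-2, 20.1 to 56.4 in FIT, 44.2 to 65.2 in IT, 47.9 to 116.9 in DP-3 and 61.5 to 89.1 in DP-3 day 1. PTPRC, TYROBP and AIF1, which define blood cells and macrophages, were at or near 0 throughout, with a highest value of 0.205 FPKM. Other macrophage markers were higher in D-3 than in D-2 without overlap, as several cytokines were. CD163 was at 0.727, 0.392 and 0.291 FPKM in D-3 and at or below 0.00728 in D-2, ITGAM at 0.159, 0.252 and 0.145 against at most 0.014, and LYZ at 2.02, 1.47 and 0.527 against 0.500, 0.246 and 0.112. CSF1R went the other way, at 0.804, 1.45 and 1.45 in D-3 against 1.80, 1.79 and 1.86 in D-2, also without overlap. It was between 0.613 and 2.35 in all libraries, and CD14 and MRC1 never exceeded 0.254. The 6 neutrophil markers together stayed at or below 0.544 FPKM, with 0.0692 to 0.544 in D-3 against at most 0.0151 in D-2. The 6 lymphocyte markers summed to 0.119 to 2.96 FPKM in FIT, 0.627 to 2.37 in IT and 0.106 to 1.23 in the cultures, led by NKG7. The 6 endothelial markers, led by PECAM1, summed to 3.90 to 6.52 FPKM in FIT and IT and 1.06 to 2.36 in the cultures. The 8 skeletal muscle markers summed to 0.535 to 5.25 FPKM in FIT and at most 0.375 elsewhere, and the 6 fibroblast markers to 21.4 to 29.4 in FIT and 5.97 to 18.5 elsewhere. PDGFRA made up most of the fibroblast sum in every group, also in the pure cultures. Its mean was 21.7 FPKM in FIT and 5.03 to 13.7 elsewhere. The 6 keratinocyte markers summed to 21.5 to 41.3 FPKM in FIT and 16.2 to 27.6 elsewhere, with KRT14 at 10.4 FPKM in FIT replicate 1. KRT10 made up most of that sum in every group, also in the pure cultures, at means from 19.2 to 25.0 FPKM. How reads of mouse cells were treated is not given in the sources used here. The part of these cells in the differences from FIT, and of the markers that moved with D-3 in its differences from D-2, was not tested.

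The 48 members not named by their levels or a call never exceeded 0.949 FPKM in any library. Of these, 28 passed 12 counts in at least 1 library and 20 in none. TNF, the inducer of many genes above, was among them, at or below 0.273 FPKM.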

How the data were processed

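Poly(A) RNA of 18 libraries was sequenced in read pairs from kits that mark strand. The submitters' processing notes name Cutadapt 1.9, HISAT2 2.0.4 and StringTie 1.3.4d, while the genome build and annotation are not given in the sources used here. Deposited gene positions of all 77 members overlapped GENCODE release 29 on GRCh38. FPKM comes from the authors' StringTie run. Estimated counts, also deposited, are whole numbers made in a way not stated, and 35.0% of 212148 low counts were multiples of 4. The limit of 12 counts assumes 4 counts per read pair, which these values do not establish. The depth ran from 23721666 to 79082786 counts per library. How overlapping and antisense genes were counted is not given.

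Groups came from the labels. Counts were scaled by TMM and tested with edgeR 4.0.16 (estimateDisp, glmQLFit, glmQLFTest; R 4.3.3) on the 6 libraries of each comparison, keeping genes at or above 0.1 FPKM in 3 or more libraries. Where 1 group held no library at that level, a gene was tested only if the other group was higher. Adjusted p-values are Benjamini-Hochberg over all genes tested. With 3 against 3 libraries the smallest p of an exact permutation test is 0.1, so whether groups overlap is given in its place. Named members reached a mean of 1 FPKM in a group or were called in a comparison. Of the receptor and NF-κB lists, the called genes with a mean of at least 1 FPKM in a group of the comparison are named, at most 3 per comparison with the largest change, apart from those said to be looked up. The members, lists and comparisons were chosen with earlier results of these data known. Alternatives were median-of-ratios scaling, no filter, DESeq2 1.42.0, limma 3.58.1 on log2(FPKM + 0.1), the replicate number as a block, 1 fit of all libraries and leaving out each library. Code was tested on simulated counts. Python 3.11.15, pandas 2.3.3 and matplotlib 3.10.9 were used.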

Additional observations from a re-analysis of the deposited data

How the results depend on the processing

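Of the 67 calls of a member in a comparison, all were kept under median-of-ratios scaling and DESeq2, 60 without the filter, 55 with limma on log2(FPKM + 0.1), 55 in 1 fit of all libraries and 41 with the replicate block, and none changed direction. The number of members called moved by more than 1.5 times in these cases. In D-2 against FIT it was 4 with limma, 4 in the fit of all libraries and 3 with the replicate block, against 7. With the replicate block it was also 7 in D-3 against FIT (12 without), 0 in DP-3 against FIT (5 without) and 3 in DP-3 against DP-3 day 1 (8 without). In DP-3 against FIT it was 9 without the filter and 9 with DESeq2. In IT against FIT it was 1 without the filter, 5 with DESeq2 and 6 in the fit of all libraries, against 0. In DP-3 against DP-3 day 1 it was 5 in the fit of all libraries. The deviations of same-numbered libraries correlated above 0.1 in 1 pair only, at 0.111. In D-3 against D-2 these correlations were 0.011 to 0.0399, above those of differently numbered libraries, -0.034 to -0.00202. In the other comparisons the 2 ranges overlapped. Correlations this small, over 3 pairs each, cannot decide whether the numbers pair the samples. The causes were not tested.

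With 1 library left out, members called numbered 2 to 6 in D-2 against FIT, from 3 up to 10 for D-3, from 0 up to 7 for DP-3 and 0 to 0 for IT, 3 to 10 in DP-3 against day 1, 5 to 9 in day 1 against D-2, 8 to 16 in D-3 against D-2, 3 to 8 in DP-3 against D-3 and 17 to 23 over the 6 groups. Of the 67 calls, 29 were kept in every such fit that tested the gene, and 14 were tested in fewer than 6 because the gene then missed the filter. These 14 had passed it through the libraries of the higher group alone, so their direction was set by the filter.

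Over all genes, DESeq2 called 2498 in D-3 against FIT (1399 by the test used), 1894 in DP-3 against FIT (965) and 661 in IT against FIT (0). The fit of all libraries called 1619 in DP-3 and 553 in IT, no filter 53 in IT and limma 12. The block gave 904 in D-3 and 164 in DP-3 against FIT, 938 in DP-3 against day 1 (1571) and 1019 in DP-3 against D-3 (1887). Limma moved the upregulated share of calls from 34.4% to 20.7% in DP-3 against FIT, 23.9% to 6.67% in DP-3 against day 1, 76.0% to 93.3% in day 1 against D-2, 78.6% to 91.6% in D-3 against D-2 and 21.7% to 8.39% in DP-3 against D-3. Depth limits members below 0.1 FPKM most in FIT replicate 3.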
